A study of Mus musculus with 12 samples.

Results

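Haem synthesis and breakdown in the liver were followed through 9 genes: Alas1, Alad, Uros, Urod, Cpox, Ppox and Fech of the synthetic pathway, and Hmox1 and Blvrb of the breakdown pathway. They were picked by function, in view of the porphyria that dioxin is known to cause, and make up 9 of the 14860 genes that had a probe set with a single gene symbol. Each of them had exactly 1 such probe set, so no choice between probe sets arose. Liver RNA of mice 8 weeks old, of a mixed C57BL/6;129Sv background, had been hybridised to Affymetrix mouse exon arrays, with 3 arrays in each of 4 groups and 12 in all. Wild-type mice (Tiparp +/+) had received corn oil or TCDD, the reference dioxin, by intraperitoneal injection at 30 µg per kg body weight, and knockout mice (Tiparp -/-) had received the same treatments. The study thus asked how loss of Tiparp, an enzyme gene that TCDD switches on and whose product restrains the dioxin receptor, changes the response of the liver to TCDD. The labels call the replicates biological but give neither the time between dose and collection nor the construction of the null allele. The treatment protocol attached to the corn oil samples also names TCDD, and the groups follow the titles and the treatment entries.

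Haem is built from glycine and succinyl-CoA along a chain of enzymes that begins and ends in the mitochondrion. Alas1 catalyses the first, rate-limiting step in the liver, and most hepatic haem is used for cytochrome P450 enzymes. Hmox1 opens the haem ring to biliverdin, releasing iron and carbon monoxide, and biliverdin reductases make bilirubin. In mice, TCDD causes uroporphyria, in which the activity of the Urod enzyme is inhibited and uroporphyrin builds up, a condition known to depend on Cyp1a2 and iron. Porphyrins, enzyme activities and proteins were not measured in the data used here, which give RNA levels only.

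Expression is given on the log2 scale, as the authors' RMA processing put it, and differences are log2 differences between group means of 3 arrays. A difference was called when its adjusted p in limma, over all 23332 probe sets of a comparison, was below 0.05. Array medians lay between 6.91 and 7.00. The summed level of 4 hepatocyte markers was between 15.4 and 15.6 on every array, which matches the labelled tissue, and limma called 0 of 4 in any of the 5 comparisons, with 0 to 1 of 4 at an unadjusted p under 0.05. The Tiparp probe set averaged 7.39 in wild-type corn oil and 10.52 in wild-type TCDD arrays, against 6.29 and 6.81 in the knockout groups, lower as the labelled genotype would have it. Under TCDD the genotype difference was -3.71 (adjusted p = 0.00210, limma). Under corn oil knockout replicate 1 read 7.10, close to the wild-type arrays at 7.33 to 7.42. No source used here says whether this probe set lies in the deleted stretch. The knockout corn oil arrays stood apart on the first principal component, which carried 23.5% of the variance. Their scores were 45.8, 36.7 and 17.2 for replicates 1 to 3, against -30.5 to 7.99 on the other arrays. In these whole-liver samples, fewer cells of a type and less RNA per cell cannot be told apart.

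TCDD acts through the aryl hydrocarbon receptor, which binds the core GCGTG of the xenobiotic response element, so the stretches upstream of the members were searched for it on both strands. RefSeq promoter sequences (build GRCm38.p6) matched 7 of the 9 genes, with 11 windows of 250 bases before a transcription start; Hmox1 and Fech were not among them. The core was found in 5 of the 11 windows, belonging to 5 of the 7 genes, and in 28.2% of 32851 such windows over all genes. These stretches hold it in capitals, and the Ppox copy reads on the opposite strand. The second Alas1 stretch holds, in capitals, the palindrome of GCGCA and its reverse complement, to which the nuclear respiratory factor NRF1 binds, a known activator of Alas1.
Alas1, chr9:106247936-106247964, minus strand: gcttcggcgcgcGCGTGcgcgcggcaggc
Alas1, chr9:106247906-106247935, minus strand: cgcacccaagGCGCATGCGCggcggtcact
Alad, chr4:62520041-62520069, minus strand: cagccccgctcaGCGTGgatctggccgcg
Cpox, chr16:58670157-58670185, plus strand: cacaggaggcccGCGTGcgagcagcagga
Ppox, chr1:171281187-171281215, minus strand: aaagtgaaacgcagtCACGCaggccgcca
Blvrb, chr7:27447924-27447952, plus strand: ttccagcgggagGCGTGgtcgcctcggtc
The matches began 222, 148, 39, 14 and 42 bases before the transcription start that ends their window in Alas1, Alad, Cpox, Ppox and Blvrb. Blvrb had a second copy that began 133 bases before that start. The Alas1, Alad and Ppox windows with the core overlap the annotated gene itself. In Alas1 and Alad the printed matches lie after another annotated start of the gene. The window before that other start holds 0 copies of the core and of the NRF1 palindrome in either gene. The NRF1 palindrome was in 1 of the 11 windows and in 0.782% of all windows. The E-box CACGTG was found upstream of Alad, Uros and Urod, in 4 of the 11 windows, against 6.02% of all windows. The core of the antioxidant response element, TGACNNNGC, the site type of NRF2, was in 0 of the 11 windows, against 10.2% of all. The motifs were chosen after the expression values had been seen, and a match is only a run of letters.

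Among the 9 genes, the RNA of Alas1 spread most over the groups, Hmox1 was the one called in any of the 5 main comparisons, and Urod, the enzyme inhibited in dioxin porphyria, lay within 0.30 log2 units on all 12 arrays. TCDD changed none of the 9 past the threshold in either genotype. In wild-type livers 0 of 9 were called by limma, where 0.116% of all probe sets were, and 1 had an unadjusted p under 0.05, where 7.28% of probe sets did. In knockout livers 0 of 9 were called, where 5.58% of probe sets were, and 3 had an unadjusted p under 0.05, where 22.1% did. Between the corn oil groups 1 of 9, Hmox1, was called higher in knockout, where 1.96% of probe sets were called in either direction and 1.23% higher. There 2 of 9 had an unadjusted p under 0.05, where 19.3% of probe sets did. Between the TCDD groups 0 of 9 were called, where 0.24% of probe sets were, and 2 had an unadjusted p under 0.05, where 11.9% did. The interaction, the TCDD difference in knockout minus that in wild-type, was called for 0 of 9 against 0.159% of all, and 2 had an unadjusted p under 0.05 against 14.8%. Counts of 0 or 1 in 9 are not read here as a property of these genes.

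**Figure D1:**
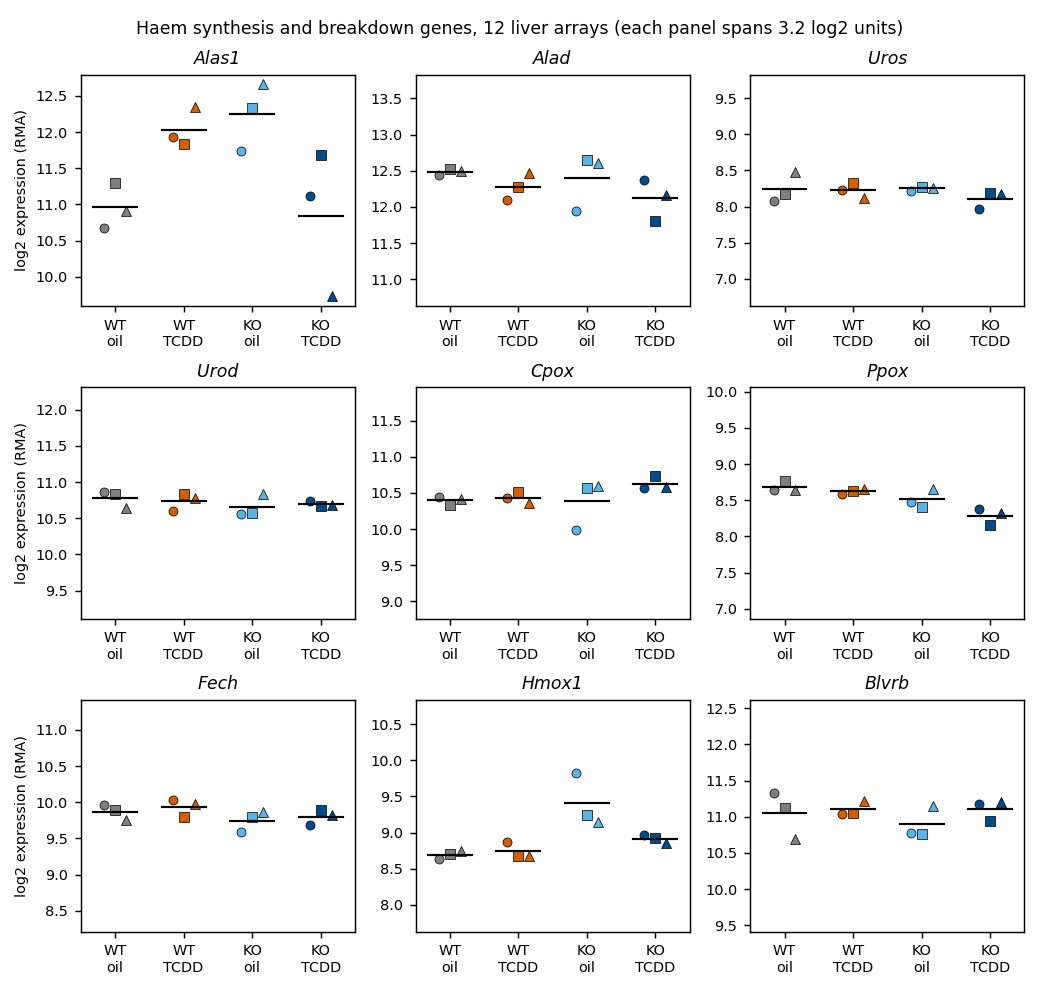
Log2 expression (RMA, vertical axes) of the 9 genes on the 12 arrays, 1 panel per gene, with every panel spanning the same number of log2 units. Points are arrays (circle, square and triangle for replicates 1, 2 and 3), the line is the mean of 3 arrays, WT is Tiparp +/+ and KO is Tiparp -/-. Alas1 runs from 9.73 to 12.66, while Urod runs from 10.56 to 10.86.

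The median TCDD difference of the 9 was 0.04 in wild-type livers, against 0.01 over all probe sets. In knockout livers it was -0.14, against -0.05 over all. The knockout minus wild-type medians were -0.09 under corn oil, against 0.03 over all, and -0.12 under TCDD, against -0.03. The genes did not go up or down as a block: 5 of 9 were above 0 with TCDD in wild-type, and 4 of 9 in knockout livers. Pearson's r between Alas1 and each of the other 8 over the 12 arrays ran from -0.23 for Blvrb to 0.30 for Hmox1, a description over arrays that share their groups.

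Alas1, whose enzyme sets the rate of the pathway in hepatocytes, had a level that differed without overlap between both treatments in each genotype and between both genotypes under each treatment, and in none of these comparisons was it called. It read 10.67, 11.30 and 10.91 in wild-type corn oil arrays and 11.93, 11.83 and 12.34 in wild-type TCDD arrays. The knockout arrays read 11.74, 12.33 and 12.66 with corn oil and 11.12, 11.68 and 9.73 with TCDD. Every TCDD array was thus above every corn oil array in wild-type livers, and every TCDD array was below every corn oil array in knockout livers. Groups that do not overlap in any of these 4 pairs were found for 1.05% of probe sets, and non-overlap higher in wild-type with lower in knockout for 1.24%.

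The group means of Alas1 were 12.24 ± 0.47 in knockout corn oil, 12.03 ± 0.27 in wild-type TCDD, 10.96 ± 0.32 in wild-type corn oil and 10.84 ± 1.00 in knockout TCDD (SD, n = 3 each). In this order, the first pair overlaps array by array and so does the last pair. The TCDD difference was 1.07 (SE 0.43, 95% confidence interval 0.11 to 2.03, 2.10-fold) in wild-type livers, with an adjusted p of 0.632 in limma. In knockout livers it was -1.40 (SE 0.43, interval -2.36 to -0.44, 2.64-fold lower), with an adjusted p of 0.0906. The intervals are per gene and not adjusted for the number of probe sets, so they leave out 0 where the adjusted p does not pass.

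Between the corn oil groups Alas1 was 1.28 higher in knockout (SE 0.43, 2.43-fold, adjusted p = 0.143, limma). Between the TCDD groups the difference was -1.19 (SE 0.43, 2.28-fold lower in knockout, adjusted p = 0.325). The interaction was -2.47 (SE 0.61, interval -3.83 to -1.12, adjusted p = 0.111), so the opposite TCDD differences of the genotypes were not shown to differ at the threshold. The spread of Alas1 between arrays of a group was large, with a pooled SD of 0.59 against a median of 0.17 over all probe sets, and 96.5% of probe sets had a smaller one. Knockout TCDD replicate 3, at 9.73, was the lowest of the 12 arrays.

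The test of Alas1 in knockout livers turned on single arrays and on the setting. Without knockout TCDD replicate 2 the difference was -1.82 and called (adjusted p = 0.0371), and without replicate 3 it was -0.84 and not called. With array weights it was -1.77 (adjusted p = 0.0376) and with the lower 50% of probe sets left out it was -1.40 (adjusted p = 0.0429), both called, and both settings also called the interaction (adjusted p = 0.0452 and 0.0464). Under every alternative run with the knockout corn oil control it was below 0.

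**Figure D2:**
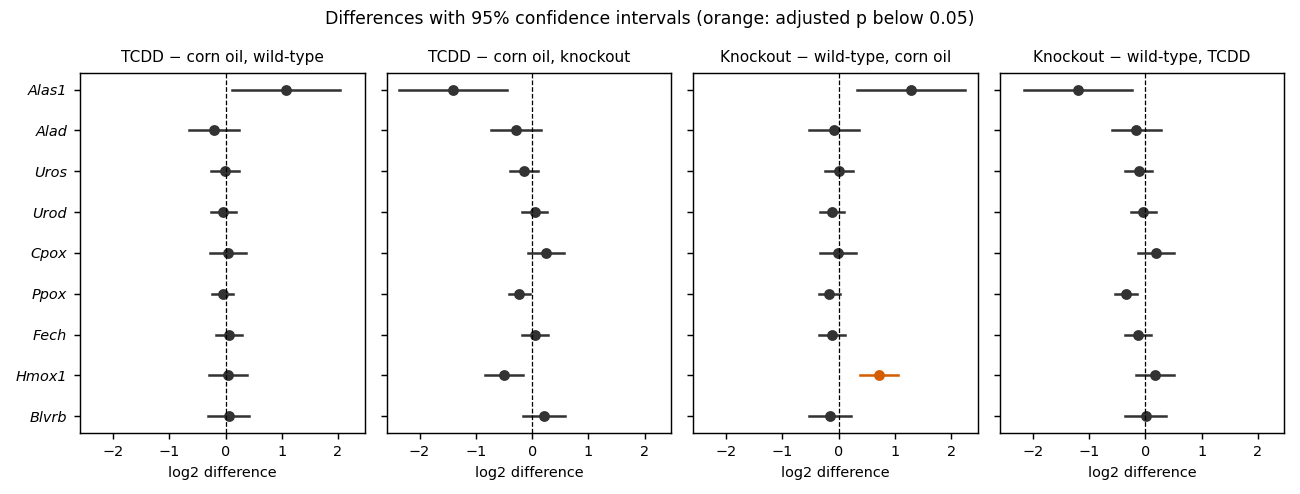
Log2 differences (horizontal axes) of the 9 genes in 4 comparisons, with 95% confidence intervals from limma as bars; orange marks an adjusted p below 0.05. Alas1 has the widest intervals, and Hmox1 in the corn oil comparison of the genotypes is the one orange point.

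Alas1 is known to be transcribed with a daily rhythm in liver, driven by clock factors such as NPAS2, so clock genes were set beside it with a list chosen after the values had been seen. Dbp, an output gene of the clock, read 7.51, 8.00 and 7.64 in wild-type corn oil and 8.52, 8.70 and 10.88 in wild-type TCDD arrays. In knockout arrays it read 8.59, 10.41 and 11.22 with corn oil and 7.40, 9.17 and 7.46 with TCDD. In all 4 groups the array highest in Dbp was also the highest in Alas1, and in 3 of 4 groups it was the lowest in Npas2. Of 10 clock genes measured, Per1 was the 1 called, lower with TCDD in knockout livers by -1.81 (adjusted p = 0.0112). There 8 of 10 had an unadjusted p under 0.05, where 22.1% of probe sets did. The same count held between the corn oil groups (19.3% of probe sets) and for the interaction (14.8%). It was 2 of 10 with TCDD in wild-type livers (7.28%) and 1 of 10 between the TCDD groups (11.9%). A clock index, the mean of the Per1, Per3, Dbp, Tef, Nr1d2 and Bhlhe41 values minus that of Arntl, Clock, Npas2 and Cry1, ran from -1.73 to -1.10 in wild-type corn oil and from 0.25 to 1.84 in knockout corn oil arrays. It ran from -0.56 to 1.60 in wild-type TCDD and from -1.60 to 0.51 in knockout TCDD arrays.

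With this index as a covariate, the TCDD difference of Alas1 was 0.38 (SE 0.41) in wild-type and -0.51 (SE 0.46) in knockout livers. The genotype difference became 0.16 (SE 0.52) under corn oil and -0.73 (SE 0.37) under TCDD, and the interaction became -0.89 (SE 0.73), with adjusted p-values of 0.565 to 0.931 in limma over the 5. The index does not overlap between the genotypes under corn oil, nor between the treatments in wild-type livers, so in both comparisons the index and the groups cannot be told apart. The labels give no hour of collection, and the part of the clock in the Alas1 values was not tested beyond this fit.

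**Figure D3:**
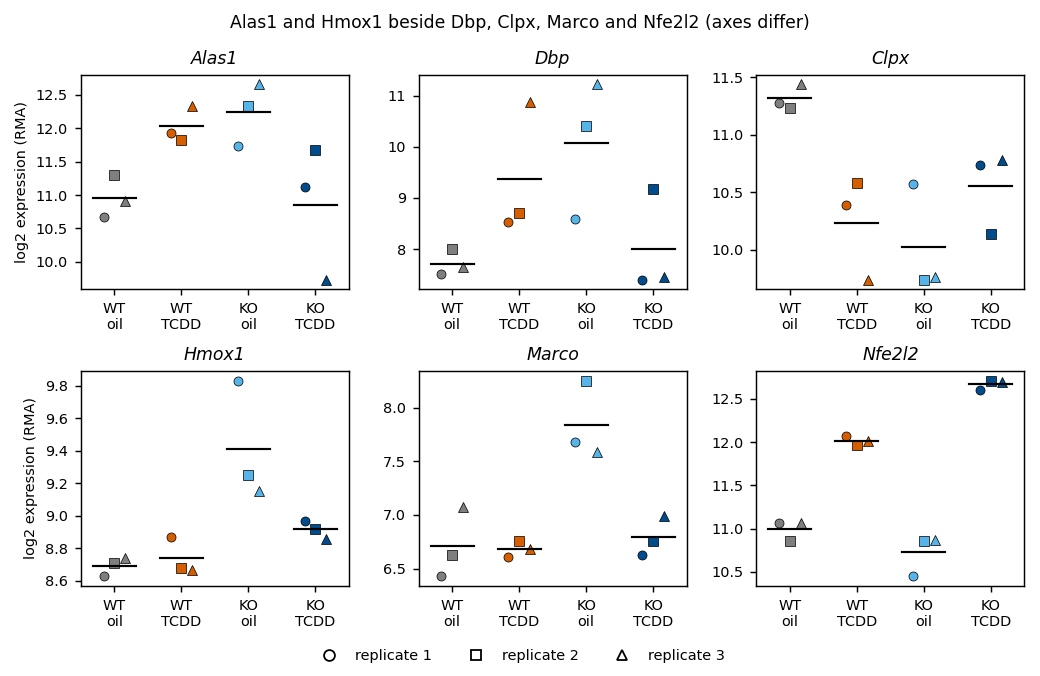
Log2 expression (vertical axes, which differ between panels) of Alas1 and Hmox1 beside Dbp, Clpx, Marco and Nfe2l2 on the 12 arrays; points are arrays by replicate number and lines are means of 3 arrays. The array highest in Dbp is the highest in Alas1 in each group, and Marco and Hmox1 are both highest in knockout corn oil.

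The enzymes between the first and last steps had small differences. Alad joins aminolaevulinic acid molecules into porphobilinogen. It read 12.44, 12.53 and 12.49 in wild-type corn oil and 12.09, 12.27 and 12.47 in wild-type TCDD arrays, and 11.94, 12.65 and 12.61 in knockout corn oil and 12.37, 11.81 and 12.17 in knockout TCDD arrays. The groups overlapped in every comparison of treatment or genotype. Its TCDD difference was -0.21 (interval -0.65 to 0.23) in wild-type and -0.28 (interval -0.72 to 0.16) in knockout livers, with adjusted p-values of 0.902 and 0.455.

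Uros closes the tetrapyrrole ring to uroporphyrinogen III. It read 8.07, 8.17 and 8.48 in wild-type corn oil, 8.23, 8.33 and 8.12 in wild-type TCDD, 8.22, 8.27 and 8.26 in knockout corn oil and 7.97, 8.18 and 8.17 in knockout TCDD arrays. In knockout livers the TCDD arrays lay just below the corn oil arrays, with a difference of -0.14 (SE 0.11, adjusted p = 0.508, limma). In wild-type livers the groups overlapped and the difference was -0.01 (interval -0.26 to 0.23), but it was 0.11 without wild-type corn oil replicate 3.

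Urod removes carboxyl groups from uroporphyrinogen and is the enzyme whose activity falls in dioxin uroporphyria. Its RNA read 10.86, 10.83 and 10.64 in wild-type corn oil, 10.60, 10.83 and 10.78 in wild-type TCDD, 10.56, 10.58 and 10.83 in knockout corn oil and 10.74, 10.67 and 10.69 in knockout TCDD arrays. All groups overlapped. The TCDD difference was -0.04 (SE 0.10, interval -0.26 to 0.18, adjusted p = 0.970) in wild-type and 0.04 (SE 0.10, interval -0.18 to 0.26, adjusted p = 0.850) in knockout livers. The genotype differences were -0.12 (interval -0.34 to 0.10) under corn oil and -0.04 (interval -0.26 to 0.18) under TCDD.

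Cpox makes protoporphyrinogen from coproporphyrinogen. It read 10.44, 10.33 and 10.42 in wild-type corn oil, 10.43, 10.52 and 10.36 in wild-type TCDD, 9.99, 10.57 and 10.59 in knockout corn oil and 10.57, 10.73 and 10.58 in knockout TCDD arrays. Knockout corn oil replicate 1 was the low array of the 12. Every knockout TCDD array was above every wild-type TCDD array, by 0.19 between means (interval -0.13 to 0.51, adjusted p = 0.655). The knockout minus wild-type difference under corn oil was -0.01, and 0.18 without knockout corn oil replicate 1.

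Ppox oxidises protoporphyrinogen to protoporphyrin. It read 8.64, 8.76 and 8.64 in wild-type corn oil and 8.59, 8.63 and 8.66 in wild-type TCDD arrays. The knockout arrays read 8.48, 8.41 and 8.65 with corn oil and 8.38, 8.16 and 8.32 with TCDD. The knockout TCDD arrays were the 3 lowest of the 12. The TCDD difference was -0.05 (interval -0.25 to 0.14, adjusted p = 0.953) in wild-type and -0.23 (SE 0.09, interval -0.42 to -0.03, adjusted p = 0.159) in knockout livers. The genotype difference under TCDD was -0.34 (SE 0.09, adjusted p = 0.190), also without overlap and also not called. Set against wild-type corn oil, a contrast of genotype and treatment together, Ppox was called lower in knockout TCDD livers by -0.39 (SE 0.09, adjusted p = 0.0469), where 2.28% of probe sets were called and 0.943% were called lower.

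Fech, the ferrochelatase that inserts iron into protoporphyrin as the last step, read 9.96, 9.89 and 9.76 in wild-type corn oil and 10.03, 9.79 and 9.97 in wild-type TCDD arrays. The knockout arrays read 9.59, 9.79 and 9.86 with corn oil and 9.69, 9.89 and 9.82 with TCDD. The groups overlapped throughout. The TCDD differences were 0.06 (interval -0.17 to 0.29) and 0.05 (interval -0.17 to 0.28) in wild-type and knockout livers, and the interaction was -0.01 (SE 0.14, adjusted p = 0.990, limma).

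Counting groups without overlap, 1 of the 9 genes, Alas1, separated with TCDD in wild-type livers, where 13.7% of probe sets did. In knockout livers 4 of 9 did, namely Alas1, Uros, Ppox and Hmox1, where 23.5% of probe sets did, and all 4 were lower, where 15.6% of probe sets were lower without overlap. Between the corn oil groups Alas1 and Hmox1 separated, both higher in knockout, where 21.8% of probe sets separated and 13.5% were higher. Between the TCDD groups 3 separated, Cpox higher and Alas1 and Ppox lower in knockout, where 18.3% of probe sets did.

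Hmox1, the inducible haem oxygenase, was higher in knockout than in wild-type livers under corn oil. It read 8.63, 8.71 and 8.74 in wild-type corn oil and 9.83, 9.25 and 9.15 in knockout corn oil arrays. With TCDD it read 8.87, 8.68 and 8.67 in wild-type and 8.97, 8.92 and 8.86 in knockout livers. The 3 knockout corn oil arrays were the 3 highest of the 12. The difference between the corn oil groups was 0.72 (SE 0.15, interval 0.38 to 1.05, 1.64-fold, adjusted p = 0.0474, limma).

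That call was close to the threshold and was lost in 5 of the 6 fits that left out 1 array of these groups. Only without knockout corn oil replicate 3 was it kept, with a difference of 0.85 and an adjusted p of 0.0141. Without replicate 1 of that group, which at 9.83 was the highest array, the difference was 0.51 (adjusted p = 0.0617), and over the 6 fits it ran from 0.51 to 0.85. It was also lost with the compared arrays alone (adjusted p = 0.178), after a further quantile normalization (0.69, adjusted p = 0.0624) and after median centring (0.67, adjusted p = 0.0568). With the clock index as a covariate the difference was 1.01 and the adjusted p 0.256.

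TCDD did not change Hmox1 in wild-type livers past the threshold, with a difference of 0.05 (interval -0.29 to 0.38, adjusted p = 0.979). In knockout livers every TCDD array was below every corn oil array, by -0.49 (SE 0.15, interval -0.83 to -0.15, 1.41-fold lower, adjusted p = 0.0907). This difference was called with the lower 50% of probe sets left out (adjusted p = 0.0465), with array weights (adjusted p = 0.0452) and without knockout corn oil replicate 3 (-0.62, adjusted p = 0.0356). Against wild-type corn oil instead, knockout TCDD livers read 0.22 higher (adjusted p = 0.508), so the sign of the difference turned with the control group. The interaction was -0.54 (SE 0.22, adjusted p = 0.281).

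Hmox1 is strongly transcribed in Kupffer cells, the macrophages of the liver that clear red cells, so their markers are given beside it. All 10 of 10 macrophage and Kupffer cell markers measured were above 0 in knockout minus wild-type under corn oil, with a median of 0.28 against 0.03 over all probe sets. Of the 10, 2 had an unadjusted p under 0.05, where 19.3% of probe sets did, and 1 was called, where 1.96% were. That marker was Marco, a scavenger receptor, with 6.43, 6.63 and 7.07 in wild-type and 7.68, 8.25 and 7.59 in knockout corn oil arrays, a difference of 1.13 (adjusted p = 0.0351, kept in 2 of 6 fits without 1 array). The summed level of the 10 markers ran from 12.5 to 13.2 in wild-type and from 12.9 to 13.4 in knockout corn oil arrays, so it overlapped, and none was at 0. Marco fell by 1.05 with TCDD in knockout livers (adjusted p = 0.0165), the comparison in which Hmox1 read lower. There 8 of the 10 markers were below 0 and 2 were above, with a median of -0.28 against -0.05 over all probe sets. Marco was the 1 of 10 called and the 1 at an unadjusted p under 0.05, where 5.58% and 22.1% of probe sets were. Between the TCDD groups all 10 were above 0 too (median 0.28, 0 called, and 0 at an unadjusted p under 0.05), where Hmox1 differed by 0.18. All 10 were below 0 with TCDD in wild-type livers (median -0.19, 0 called, and 0 at an unadjusted p under 0.05), where Hmox1 differed by 0.05. The part of these cells in the Hmox1 values was not tested.

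Blvrb, a biliverdin and flavin reductase, read 11.33, 11.12 and 10.69 in wild-type corn oil and 11.04, 11.05 and 11.22 in wild-type TCDD arrays. The knockout arrays read 10.77, 10.76 and 11.15 with corn oil and 11.17, 10.94 and 11.21 with TCDD. The groups overlapped in every comparison. The TCDD differences were 0.06 (interval -0.31 to 0.43) in wild-type and 0.21 (interval -0.15 to 0.58) in knockout livers, with adjusted p-values of 0.976 and 0.509. Blvrb is abundant in red cells. The 5 erythroid markers measured had a summed level between 10.7 and 11.2 on every array, a sum that is mostly Alas2, described next, since the other 4 lay between 5.75 and 7.47, and 0 of 5 were called by limma in any of the 5 comparisons, with 0 to 1 at an unadjusted p under 0.05.

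Of 4 further enzymes listed for the pathway, 3 were measured, so the chain is not covered in full. Limma called 0 of 3 in any of the 5 comparisons, with 0 to 2 at an unadjusted p under 0.05. Alas2, the erythroid form of the first enzyme, differed with TCDD by -0.17 in wild-type and -0.13 in knockout livers. Hmox2, the constitutive haem oxygenase, differed by 0.15 and -0.24, and Blvra, the main adult biliverdin reductase, by 0.07 and -0.28. Alas2 separated without overlap with TCDD in wild-type livers, where 13.7% of probe sets did. It also separated between genotypes, lower in knockout by -0.24 under corn oil and -0.20 under TCDD (adjusted p = 0.218 and 0.459, limma). There 21.8% and 18.3% of probe sets separated.

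Carriers and handlers of haem, its precursors and iron numbered 18 measured, and 1 was called with TCDD, in knockout livers, where 5.58% of probe sets were. Slc25a28, which encodes mitoferrin-2, an importer of iron into mitochondria, where Fech uses it, read 8.98, 9.09 and 8.87 in knockout corn oil and 9.72, 9.90 and 10.09 in knockout TCDD arrays. It rose by 0.92 (SE 0.10, 1.90-fold, adjusted p = 0.00113, limma), and the call was kept in 6 of 6 fits without 1 array. In wild-type livers it read 8.89, 8.81 and 8.84 with corn oil and 9.30, 9.48 and 9.40 with TCDD, a difference of 0.55 (SE 0.10, adjusted p = 0.123). The groups did not overlap in either genotype, and the interaction of 0.38 was not called (adjusted p = 0.261). In all, 1 of 18 was called higher and 0 lower in knockout livers, with a median of 0.07 against -0.05 over all probe sets. In wild-type livers limma called 0 of 18, with 3 at an unadjusted p under 0.05, against 0.116% and 7.28% of all probe sets. The difference farthest from 0 in wild-type livers was that of Clpx.

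Clpx, a mitochondrial unfoldase that activates the Alas enzymes and in human cells directs Alas1 for degradation when haem is plentiful, was called between the corn oil groups. It read 11.28, 11.23 and 11.44 in wild-type and 10.57, 9.74 and 9.76 in knockout corn oil arrays. Its difference of -1.29 (SE 0.28, adjusted p = 0.0477) lost its call in all 6 fits without 1 array and was -0.31 with the clock index as a covariate. With TCDD it read 10.39, 10.58 and 9.74 in wild-type and 10.74, 10.14 and 10.78 in knockout livers. The TCDD differences were -1.08 without overlap in wild-type (SE 0.28, adjusted p = 0.330) and 0.53 in knockout livers (adjusted p = 0.297). The array lowest in Clpx was the highest in Alas1 in 3 of 4 groups.

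The listed regulators of Alas1 and Hmox1, not all of them transcription factors, numbered 15 measured. Of these, 1 was called higher with TCDD in wild-type and 3 in knockout livers. Over all probe sets 0.116% and 5.58% were called, in either direction. None of the 15 was called lower in either genotype by limma. At an unadjusted p under 0.05 were 4 and 5 of 15, against 7.28% and 22.1% of all probe sets. Nfe2l2, which encodes the NRF2 factor that activates Hmox1 and antioxidant genes, read 11.07, 10.86 and 11.06 in wild-type corn oil and 12.07, 11.97 and 12.01 in wild-type TCDD arrays. In knockout livers it read 10.45, 10.86 and 10.87 with corn oil and 12.60, 12.71 and 12.69 with TCDD. It rose by 1.02 (SE 0.11, adjusted p = 0.00938) in wild-type and by 1.94 (SE 0.11, adjusted p = 5.87e-05) in knockout livers. The wild-type call was kept in 2 of 6 fits without 1 array, with differences of 0.95 to 1.06, and the knockout call in 6 of 6. The interaction of 0.92 was not called (adjusted p = 0.0688). Ahr, the dioxin receptor, just missed the threshold in knockout livers, where it read 9.86, 10.35 and 11.12 with corn oil and 8.95, 9.70 and 8.32 with TCDD. That was a difference of -1.45 without overlap (SE 0.38, adjusted p = 0.0522), against -0.15 in wild-type livers, and under TCDD it read -1.30 in knockout against wild-type (adjusted p = 0.239). Nr1i3, the receptor CAR, which activates Alas1, read higher with TCDD without overlap in both genotypes, by 1.45 (SE 0.58, adjusted p = 0.632) and 1.64 (SE 0.58, adjusted p = 0.133). Ahr and Nr1i3 were singled out after their values were seen.

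Hmox1 itself was not called with TCDD in either genotype, while 5 other targets of NRF2 were measured and 2 of 5 rose in wild-type and 4 of 5 in knockout livers. Of all probe sets 0.116% and 5.58% were called in these comparisons. Nqo1, a quinone reductase, rose by 1.62 (adjusted p = 0.0487, lost in 6 of 6 fits without 1 array) and by 3.04 (adjusted p = 0.000212). Srxn1, a sulfiredoxin, rose by 1.03 (adjusted p = 0.00938, kept in 3 of 6 fits) and by 1.97 (adjusted p = 5.87e-05). Gclc, of glutathione synthesis, rose by 2.26 in knockout livers (adjusted p = 0.00219), as did Pgd, of the pentose phosphate pathway, by 1.00 (adjusted p = 0.000288). The medians of the 5 were 0.52 and 1.97, against 0.01 and -0.05 over all probe sets.

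Between genotypes, Gclc was lower in knockout under corn oil by -1.32 (adjusted p = 0.0473, kept in 2 of 6 fits), the comparison in which Hmox1 was higher. Under TCDD, Nqo1, Srxn1 and Pgd were higher in knockout by 1.52, 0.90 and 0.56 (adjusted p = 0.0415, 0.0141 and 0.0303, kept in 2, 3 and 1 of 6 fits). Maff, a small Maf partner of NRF2 and of its competitor Bach1, rose by 1.10 with TCDD in knockout livers (adjusted p = 0.000353) and was higher there than in wild-type TCDD livers by 1.03 (adjusted p = 0.00210, kept in 6 of 6 fits). Ahrr, the repressor of the dioxin receptor, rose by 2.52 (adjusted p = 0.00153) and was higher by 2.11 (adjusted p = 0.0202, kept in 1 of 6 fits) in the same comparisons.

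**Figure D4:**
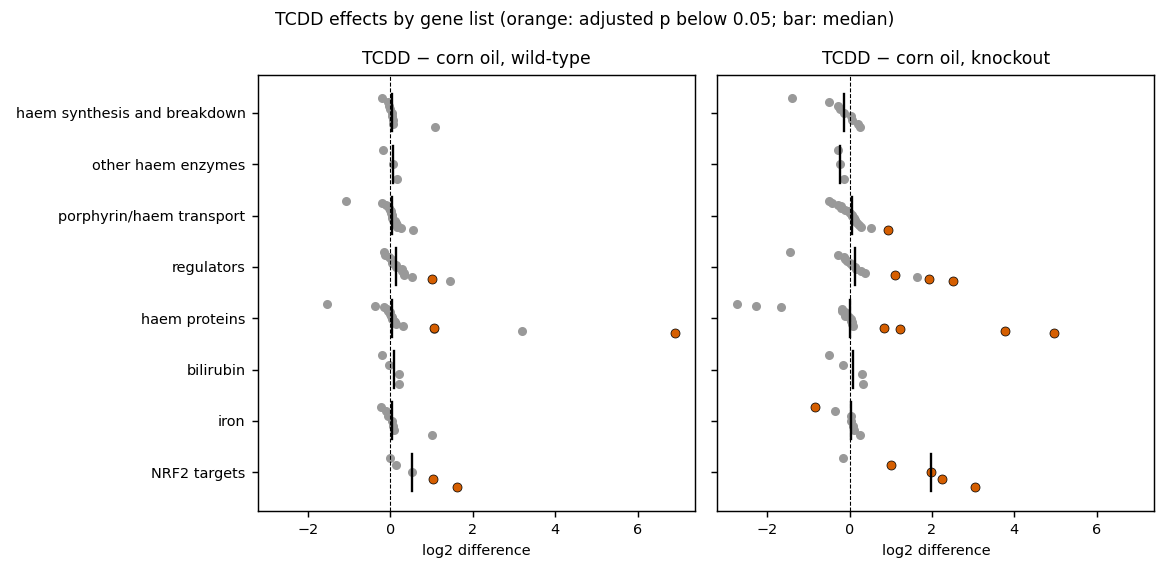
Log2 TCDD differences (horizontal axis) of the genes in 8 lists (rows), in wild-type and knockout livers; each point is a gene, bars are list medians and orange marks an adjusted p below 0.05. No gene of haem synthesis and breakdown is orange, while 2 of 5 and 4 of 5 NRF2 targets are. Over all probe sets 0.116% and 5.58% were called.

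The list of haem proteins had 18 genes measured, though the products of Cyb5r3, Sdha and Uqcrc1 among them hold no haem themselves. With TCDD 2 of the 18 were called higher in wild-type and 4 in knockout livers, with 0 called lower. Over all probe sets 0.116% and 5.58% were called, in either direction. Cyp1a1, the classical target of the dioxin receptor, rose by 6.92 (adjusted p = 1.59e-05) in wild-type and by 4.97 (adjusted p = 6.30e-05) in knockout livers, from 6.32 and 8.34 in the corn oil groups to 13.24 and 13.31. Its interaction of -1.95 was not called (adjusted p = 0.0973, limma). The highest value of any probe set on any array was 14.16. Cyp1a2, on which mouse uroporphyria depends, rose by 1.05 (adjusted p = 0.0230, kept in 1 of 6 fits) and by 0.85 (adjusted p = 0.00979, kept in 6 of 6 fits). Its corn oil means were 12.64 and 12.90. The Alas1 level read higher with TCDD in wild-type and lower in knockout livers, while both cytochromes rose in both.

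Cyp1b1, of the same receptor's targets, rose by 3.79 in knockout livers (adjusted p = 0.00277), and so did Cyp8b1, the sterol hydroxylase of cholic acid synthesis, by 1.23 (adjusted p = 0.0199, kept in 2 of 6 fits). Under corn oil Cyp1a1 was higher in knockout by 2.02 (adjusted p = 0.0278, kept in 3 of 6 fits) and Cyp8b1 lower by -1.15 (adjusted p = 0.0474, kept in 1 of 6 fits). The median of the 18 was 0.03 with TCDD in wild-type and 0.00 in knockout livers. In wild-type livers 11 were above 0 and 6 below, and in knockout livers 9 were above and 9 below. Their differences ran from -1.53 to 6.92 in wild-type and from -2.73 to 4.97 in knockout livers. At an unadjusted p under 0.05 were 4 and 7 of 18, against 7.28% and 22.1% of all probe sets.

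Of 7 iron genes measured, Ireb2, which encodes an iron regulatory protein that binds ferritin and transferrin receptor mRNAs, fell by 0.83 with TCDD in knockout livers. It was the 1 of 7 called there, where 5.58% of probe sets were called and 3.37% were called lower. It read 10.52, 10.35 and 10.38 with corn oil and 9.37, 9.88 and 9.51 with TCDD (SE 0.12, adjusted p = 0.00478, kept in 6 of 6 fits without 1 array). In wild-type livers it averaged 10.19 with corn oil and 10.09 with TCDD, a difference of -0.10 that was not called. There 0 of 7 were called, with 1 at an unadjusted p under 0.05, against 0.116% and 7.28% of all probe sets. The largest difference there was 1.00, that of Tfrc, the transferrin receptor. It read 7.16, 7.47 and 7.57 with corn oil and 7.93, 8.59 and 8.69 with TCDD in wild-type livers, without overlap and not called. Genes of bilirubin conjugation and transport numbered 4 measured, and limma called 0 of 4 in any of the 5 comparisons, with 0 to 1 at an unadjusted p under 0.05. With TCDD in knockout livers 5 of 7 endothelial markers (Stab1, Stab2, Tek, Oit3 and Pecam1) were called lower as well, where 3.37% of probe sets were, with summed levels of 12.2 to 12.4 in corn oil and 11.7 to 11.8 in TCDD arrays. In wild-type livers 7 of 7 were below 0 and 0 called, with 4 at an unadjusted p under 0.05, and the sums of 11.9 to 12.2 with corn oil and 11.7 with TCDD did not overlap. There Hmox1 differed by 0.05 and Ireb2 by -0.10. Between the corn oil groups, where Hmox1 was called, 5 of 7 endothelial markers were above 0 and 2 below in knockout minus wild-type. Of the 7, 0 were called and 3 had an unadjusted p under 0.05, where 1.96% and 19.3% of probe sets did. The sums were at most 12.16 in wild-type and at least 12.25 in knockout corn oil arrays, without overlap. The part of these cells in the Hmox1 and Ireb2 values was not tested.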

How the data were processed

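The deposited values are log2 expression values, 1 per probe set and array, that the authors made with RMA in Affymetrix Expression Console on the build mm9, per the submitters' processing notes. No source used here gives versions, the level of probe set summary or the annotation. Values carry 2 decimals and entered the tests without rescaling or filtering. No pair of arrays was identical, and the number of arrays limits the precision.

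A gene table of the platform gave exactly 1 symbol to 14996 of 23332 probe sets, several to 1019 and none to 7317. Where a gene had several probe sets, that with the highest mean over 12 arrays was used. limma 3.58.1 (R 4.3.3) fitted 1 mean per group over the 12 arrays together, then 5 contrasts and the empirical Bayes step (8 residual and 2.19 prior degrees of freedom). Benjamini-Hochberg adjustment ran over the whole table in each comparison, and every adjusted p is from limma. The fitting steps were tested on simulated data. Summed marker levels are log2 of the sum of linear values.

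The 9 genes, the 15 gene lists (the 9 being one of them) and the tests were chosen with earlier results of these data known. The clock list was added after seeing the data. Genes of the lists of haem enzymes, carriers, regulators, haem proteins, bilirubin, iron and NRF2 targets were named when called, up to 4 per list and comparison, and Nfe2l2, Cyp1a1, Cyp1a2, Tiparp and the further haem enzymes always. Dbp, Npas2, Per1 and Clpx beside Alas1, Marco with the endothelial markers beside Hmox1, and Tfrc among the iron genes were described after their values were seen. Replicate numbers did not pair the arrays: deviations from group means of same-numbered arrays had a median correlation of -0.03 over 18 pairs (-0.21 to 0.11). Alternatives were limma's robust and trended step, the compared arrays alone, a replicate block, quantile normalization, median centring, dropping the lower 50% of probe sets, array weights, leaving out each array and, added later, the clock index as a covariate. RefSeq promoter sequences are of GRCm38.p6, and no coordinate was taken between builds.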

Additional observations from a re-analysis of the deposited data

Results flagged for a closer look

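The TCDD differences of Alas1 ran in opposite directions in the genotypes without any overlap of arrays. In wild-type livers Alas1 read 1.07 higher with TCDD on the log2 scale, with 3 of 3 TCDD arrays above all corn oil arrays, and in knockout livers the difference was -1.40, with 3 of 3 TCDD arrays below all corn oil arrays. The test of the difference itself, the limma interaction of -2.47, did not pass (adjusted p = 0.111). Opposite directions without overlap were found for 1.6% of probe sets.

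Pgd, an enzyme of the pentose phosphate pathway and a target of NRF2, had a TCDD difference that the limma interaction called as larger in knockout livers, by 0.88 (SE 0.12, adjusted p = 0.0292). It read 9.58, 9.65 and 9.65 in wild-type corn oil and 9.68, 9.72 and 9.85 in wild-type TCDD arrays, and 9.39, 9.23 and 9.30 in knockout corn oil and 10.17, 10.34 and 10.41 in knockout TCDD arrays. The call was kept in 4 of 12 fits that left out 1 array, with differences of 0.82 to 0.94.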

How the results depend on the processing

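Over 45 comparisons of a member, 684 values were computed under alternatives. Of these 661 kept their direction and their side of the threshold, a count that takes a change of sign as none when both values lay within 1 SE of 0 (47 of 51 changes of sign). The 4 others that turned were Uros with TCDD in wild-type (0.11 without wild-type corn oil replicate 3, -0.10 to 0.11 without single arrays), Hmox1 in knockout TCDD against wild-type corn oil (0.22), Cpox between the corn oil groups (0.18 without knockout corn oil replicate 1, -0.12 to 0.18 without single arrays) and the Fech interaction with the clock covariate (0.27). In 9 cases a call appeared and in 10 one was lost, the latter all for Hmox1 between the corn oil groups.

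Of the 9 genes, the 1 call between the corn oil groups became 0 with the compared arrays alone, the replicate block (adjusted p = 0.0818), quantile normalization, median centring and the clock covariate, and ran from 0 to 1 without single arrays. The 0 calls with TCDD in knockout became 2 (Alas1, Hmox1) with the lower 50% of probe sets dropped, 2 with array weights and 1 (Ppox) against wild-type corn oil, and ran from 0 to 1 without single arrays. The 0 interaction calls became 1 with each of the first 2 settings.

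Probe sets called with TCDD in wild-type were 27, and 13 with the compared arrays alone, 15 with the replicate block, 52 with the lower 50% dropped, 47 with array weights, 6 with the clock covariate and 6 to 19 without single arrays. In knockout they were 1303, and 184, 860 with the block, 2515 with weights, 199 with the clock and 435 to 2004. Between corn oil groups they were 457, and 0, 0 with the block, 1196 with the lower 50% dropped, 1734 with weights, 0 with the clock and 1 to 1624. Between TCDD groups they were 56, and 0, then 85 with the lower 50% dropped, 176 with weights, 31 with the clock and 21 to 73. For the interaction they were 37, and 0 with the block, 61 after quantile normalization, 396 with the lower 50% dropped, 693 with weights, 0 with the clock and 0 to 546. The knockout TCDD calls split 516 higher to 787 lower, but 664 to 458 after quantile normalization and 639 to 536 after median centring. The corn oil split of 288 to 169 became 212 to 219 and 195 to 212. The cause of these shifts was not tested. Replicate numbers are only shared numbers here, and the block called no other member. No other probe set of a member existed, so that alternative was not run. With 3 arrays a group and no scan dates or batches in the labels, small differences and batch effects could not be resolved.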

Other observations

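The genes most like Alas1 over the 12 arrays, of 14859 compared by Pearson's r, were Ppat (0.93), the first enzyme of purine synthesis, Emc4 (0.91), Tns2 (0.89), Il7r (0.89) and Rhbdd2 (0.89). Ppat averaged 8.38 with corn oil and 8.73 with TCDD in wild-type livers, and 8.75 with corn oil and 8.29 with TCDD in knockout livers, the same order of groups as Alas1. Those most like Hmox1 were Sema6b (0.96), Dbn1 (0.96), Ngdn (0.95), Lepr (0.94) and Arid5a (0.93). Sema6b had means of 7.19, 7.25, 7.68 and 7.30 in the same order of naming. The arrays share their groups, and these are descriptions over 12 arrays.

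Among 5 stellate cell markers, Col1a1 was called higher with TCDD in knockout livers, by 0.35 (adjusted p = 0.0471, limma, kept in 1 of 6 fits without 1 array). It was the 1 of 5 called there, where 5.58% of probe sets were called in either direction.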
